A study of Rattus norvegicus with 12 samples.

Results

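The lipoxygenase family was described here by 5 genes, Alox15, Alox12, Alox5, Alox5ap and Aloxe3, out of 13337 genes with a named probe on the array. Every probe annotated with 1 of these symbols was taken, which gave 1 probe per gene. The set was chosen by readout: it was proposed after the differences between TCDD and control arrays in the pituitary and the hypothalamus were known, with the high Alox15 signal in the pituitary and the low Aloxe3 signal in the hypothalamus leading the choice. The members' TCDD differences are therefore given as a description with no test, and only their difference between the tissues in controls was tested.

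Lipoxygenases are iron enzymes that add oxygen to arachidonic acid and other polyunsaturated fatty acids, and their hydroperoxide products are turned into hydroxy fatty acids (HETEs), leukotrienes, lipoxins and hepoxilins. Arachidonic acid is first released from membranes by phospholipases A2, and cyclooxygenases and cytochrome P450 enzymes compete for the same substrate. Macrophages, granulocytes, mast cells, platelets and skin are the best known sources of these enzymes, and lipoxygenase products have also been studied as signals in hormone release from pituitary cells.

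The samples came from male Wistar rat fetuses on gestational day 20, with no genetic modification in the labels. Their dams received TCDD (2,3,7,8-tetrachlorodibenzo-p-dioxin, a dioxin that activates the aryl hydrocarbon receptor, AhR) by mouth in corn oil on gestational day 15, or served as controls, whose vehicle the labels do not give. The dose was 1 µg/kg by the series text and 1 mg/kg by the sample labels, and this conflict was not resolved. The 4 groups of 3 arrays were pituitary TCDD, pituitary control, hypothalamus TCDD and hypothalamus control, each hybridised as biotin-labelled cRNA to a 1-colour Illumina RatRef-12 BeadChip. Nothing in the labels says whether replicates are separate litters or pooled fetuses, so a p-value here reflects the scatter of these arrays, possibly technical only. The aim stated for the series was to find genes behind a lower fetal gonadotropin β-subunit level after TCDD.

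Levels are given as background-corrected, quantile-normalized log2 intensities, with an offset that compresses the folds of dim probes, and a probe was called detected on an array where its detection p-value was below 0.05. Raw medians ran over the arrays between 92.5 and 120.8 intensity units, and between 47.4% and 54.5% of probes were detected. Pituitary markers summed to between 66967 and 76787 normalized intensity units on pituitary TCDD arrays and between 74790 and 84440 on pituitary control arrays, against between 876 and 1149 on hypothalamus TCDD arrays and between 925 and 1147 on hypothalamus control arrays. Hypothalamus markers summed to between 16004 and 20978 over all hypothalamus arrays and between 1567 and 2336 over all pituitary arrays, although Sim1 was detected on no array of either tissue. Pituitary TCDD replicate 5 stood apart, where 292 probes exceeded the average of the other 5 pituitary arrays by over 1 log2 unit, against between 19 and 39 such probes for each of those 5. The members' pituitary differences are therefore also given without it. Fewer cells of a type and less RNA per cell cannot be told apart in these bulk samples.

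The stretches upstream of the transcription start of Alox12, Alox5 and Aloxe3 are shown because TCDD acts through AhR, whose dimer with ARNT binds a core of GCGTG, and because Alox12 and Aloxe3 differ in whether that core is present. Each is 250 bases upstream of the gene's start in RefSeq's GRCr8 assembly, on the gene's own strand, 5′ to 3′, with capitals on the searched motifs, read on either strand: GCGTG (the AhR core), GGGCGG (a GC box) and TATAAA. No searched motif overlapped another in these 3 stretches. No stretch was available for Alox15 or Alox5ap, so their upstream bases were not searched.
Alox12: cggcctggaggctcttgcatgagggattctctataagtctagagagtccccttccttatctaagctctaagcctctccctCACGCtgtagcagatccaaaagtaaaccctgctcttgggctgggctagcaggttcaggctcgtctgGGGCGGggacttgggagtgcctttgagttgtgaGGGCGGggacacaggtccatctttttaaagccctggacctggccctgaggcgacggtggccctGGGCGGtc
Alox5: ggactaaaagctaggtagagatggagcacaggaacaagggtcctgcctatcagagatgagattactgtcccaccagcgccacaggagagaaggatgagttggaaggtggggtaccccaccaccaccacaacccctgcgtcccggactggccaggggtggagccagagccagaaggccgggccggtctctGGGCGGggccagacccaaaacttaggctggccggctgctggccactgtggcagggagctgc
Aloxe3: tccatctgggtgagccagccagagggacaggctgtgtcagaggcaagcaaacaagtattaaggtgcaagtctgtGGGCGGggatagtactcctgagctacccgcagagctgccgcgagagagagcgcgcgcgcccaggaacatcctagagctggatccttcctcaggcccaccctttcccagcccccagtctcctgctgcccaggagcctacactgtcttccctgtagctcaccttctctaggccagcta
The Alox12 stretch lies at chr10:55469200-55469449 on the minus strand, the Alox5 stretch at chr4:151251127-151251376 on the minus strand and the Aloxe3 stretch at chr10:54329848-54330097 on the plus strand. The Alox12 stretch held 1 AhR core, at position -170 from the start and written there as its reverse complement, and 3 GC boxes. The Alox5 and Aloxe3 stretches held 0 AhR cores and 1 GC box each, and none of the 3 held TATAAA. Over 33469 rat promoters of this length, 25.9% held the AhR core, 30.5% the GC box and 12.9% TATAAA on either strand. A match is a run of letters, not a binding site.

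Alox15 encodes the 12/15-lipoxygenase of rodents, which is known from macrophages and eosinophils and is induced by interleukins 4 and 13 in human monocytes. Its raw intensity was 1134.7, 904.7 and 607.7 in pituitary TCDD replicates 1, 2 and 5, against 185.7, 176.0 and 271.7 in pituitary control replicates 1, 2 and 3. On the log2 scale these were 10.01, 9.48 and 8.90 in TCDD pituitaries, against 6.86, 6.78 and 7.36 in control pituitaries. All 3 TCDD arrays lay above all 3 control arrays, and the lowest TCDD array exceeded the highest control array by more than 1 log2 unit. The group means were 9.47 ± 0.56 in TCDD pituitaries and 6.999 ± 0.31 in control pituitaries (SD, n = 3 each), a difference of 2.47 ± 0.26 (SE), or 5.52-fold. Of 13018 tested probes, 4 had a larger positive difference, and the median over all of them was -0.01. The difference was 2.76 without pituitary TCDD replicate 5, the lowest of the 3, and 1.34 on the scale of the authors' processed values, whose transform is unknown.

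In the hypothalamus Alox15 stayed near its level in control pituitaries. Its log2 levels were 6.81, 6.32 and 6.46 in hypothalamus TCDD replicates 1, 3 and 4, against 6.37, 6.91 and 6.65 in hypothalamus control replicates 1, 3 and 5. These groups overlapped, with a difference of -0.11 ± 0.26 (SE), of 0.021 without hypothalamus control replicate 3 and of -0.25 without hypothalamus TCDD replicate 1. The TCDD difference in the pituitary minus that in the hypothalamus was 2.58 ± 0.36 (SE). The probe was detected on 12 of 12 arrays. Ordered by group mean, pituitary TCDD stood first, and the 3 groups after it (pituitary control, hypothalamus control, hypothalamus TCDD) each overlapped their neighbour. In controls the pituitary exceeded the hypothalamus by 0.36 ± 0.26 (SE), which did not pass the limma test (adjusted p = 0.232).

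**Figure D1:**
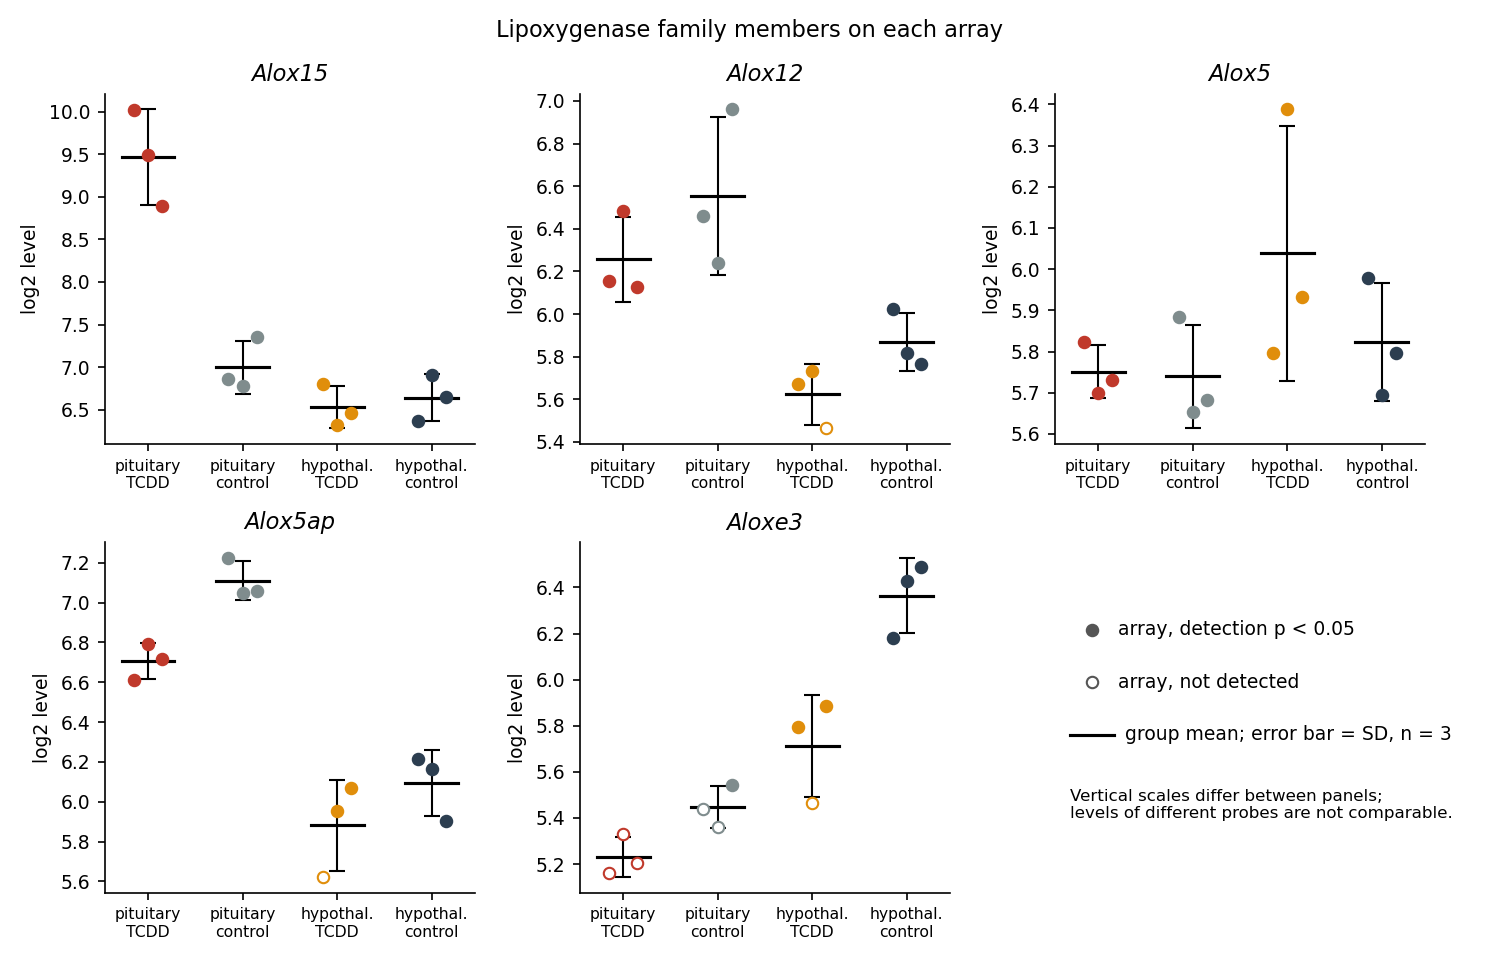
Log2 level (vertical axis, own scale per gene) of the 5 genes on each array, in TCDD and control pituitaries and TCDD and control hypothalami; filled points are detected arrays, open points not detected, lines the group mean and bars the SD (n = 3). Alox15 is high only on the 3 TCDD pituitary arrays, between 8.90 and 10.01, and Aloxe3 is highest in control hypothalami.

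Alox12 encodes the platelet-type 12-lipoxygenase, the enzyme that makes 12-HETE in platelets. Its log2 levels were 6.16, 6.49 and 6.13 in pituitary TCDD replicates 1, 2 and 5, against 6.46, 6.24 and 6.96 in pituitary control replicates 1, 2 and 3. These overlapped, with a difference of -0.30 ± 0.17 (SE), and of -0.09 without pituitary control replicate 3, the highest of the 6 pituitary arrays. In the hypothalamus the levels were 5.67, 5.73 and 5.46 in TCDD replicates 1, 3 and 4, against 6.02, 5.82 and 5.77 in control replicates 1, 3 and 5. The TCDD arrays all lay below the control arrays there, and TCDD replicate 4 was not detected. The hypothalamic difference was -0.25 ± 0.17 (SE), and -0.03 on the scale of the authors' processed values.

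Alox5 encodes 5-lipoxygenase, which starts leukotriene synthesis, and Alox5ap encodes its activating protein FLAP, which presents arachidonic acid to it. Alox5 varied least of the 5: over the 12 arrays its log2 level spanned 0.74 units, against 3.69 for Alox15. It measured 5.82, 5.70 and 5.73 in pituitary TCDD replicates 1, 2 and 5, against 5.88, 5.65 and 5.68 in pituitary control replicates 1, 2 and 3. In the hypothalamus it measured 5.80, 6.39 and 5.93 in TCDD replicates 1, 3 and 4, against 5.98, 5.69 and 5.80 in control replicates 1, 3 and 5. The groups overlapped in both tissues, and all 4 group means followed each other with overlap, hypothalamus TCDD standing first. The differences were 0.01 ± 0.14 (SE) in the pituitary and 0.22 ± 0.14 (SE) in the hypothalamus, the second falling to 0.04 without hypothalamus TCDD replicate 3.

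Alox5ap was lower in TCDD than in control pituitaries on every array. Its log2 levels were 6.61, 6.79 and 6.72 in pituitary TCDD replicates 1, 2 and 5, against 7.22, 7.05 and 7.06 in pituitary control replicates 1, 2 and 3. The means were 6.71 ± 0.09 and 7.11 ± 0.10 in these groups (SD, n = 3 each), a difference of -0.40 ± 0.13 (SE), or 1.32-fold lower with TCDD. Of the 13018 tested probes, 361 had a lower difference. In the hypothalamus it measured 5.62, 5.95 and 6.07 in TCDD replicates 1, 3 and 4, the first not detected, against 6.22, 6.16 and 5.91 in control replicates 1, 3 and 5. Those groups overlapped, with a difference of -0.21 ± 0.13 (SE), which was -0.086 without hypothalamus TCDD replicate 1, the lowest of the 6, and -0.31 without hypothalamus TCDD replicate 4 or hypothalamus control replicate 5. On the scale of the authors' processed values the pituitary difference was -0.13.

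Aloxe3 encodes a hydroperoxide isomerase that acts after the product of Alox12b in the skin barrier. It was detected on the fewest arrays of the 5 members, 6 of 12. In the hypothalamus its raw intensity was 114.4, 89.0 and 100.4 in TCDD replicates 1, 3 and 4, against 135.3, 138.1 and 164.4 in control replicates 1, 3 and 5. The log2 levels were 5.79, 5.46 and 5.88 in TCDD hypothalami, with replicate 3 not detected, against 6.18, 6.43 and 6.49 in control hypothalami. All TCDD arrays lay below all control arrays. The means were 5.71 ± 0.22 in TCDD hypothalami and 6.37 ± 0.16 in control hypothalami (SD, n = 3 each), a difference of -0.65 ± 0.12 (SE), or 1.57-fold lower with TCDD. Of the tested probes, 38 had a lower difference. The hypothalamic difference was -0.36 without background correction and -0.10 on the scale of the authors' processed values.

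In the pituitary Aloxe3 was not detected on any TCDD array (5.16, 5.33 and 5.20) and was detected on 1 of the 3 control arrays (5.44, 5.36 and 5.54). The TCDD arrays again lay below the control arrays, with a difference of -0.22 ± 0.12 (SE). No fold is given, because the level in TCDD pituitaries is only a bound. Keratinocyte markers summed to between 743 and 781 in TCDD pituitaries and between 789 and 900 in control pituitaries. In the hypothalamus they summed to between 907 and 1022 with TCDD and between 867 and 976 in controls, where Krt1 and Sprr1a were detected on all 6 hypothalamus arrays, Krt10 on 3, and Krt14, Krt15, Ivl, Dsc3 and Tp63 on none. Pineal markers summed to between 722 and 774 in TCDD hypothalami and between 636 and 691 in control hypothalami, where Rom1 was detected on all 6 arrays, Aanat on 2 TCDD arrays and 1 control array, and Asmt, Crx, Sag and Gnb3 on none. The part of these cell types in the Aloxe3 difference was not tested.

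Counted over the 5 members, the groups did not overlap for 3 in the pituitary (Alox15 higher, Aloxe3 and Alox5ap lower) and for 2 in the hypothalamus (Alox12 and Aloxe3 lower). Over all tested probes, groups did not overlap in either direction for 20.0% in the pituitary and 13.9% in the hypothalamus. The median difference of the members was -0.22 in the pituitary and -0.21 in the hypothalamus, against -0.01 and -0.0002 over all probes. Without pituitary TCDD replicate 5 the pituitary difference was 2.76 for Alox15, -0.41 for Alox5ap, -0.23 for Alox12, -0.20 for Aloxe3 and 0.02 for Alox5. These comparisons took part in the choice of the members, so nothing is read from the counts. At an adjusted p below 0.05, 0.384% of the tested probes were higher and 0.284% lower with TCDD in the pituitary, 0.0230% passed in either direction in the hypothalamus, and 0.200% passed for the difference between the 2 TCDD effects.

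**Figure D2:**
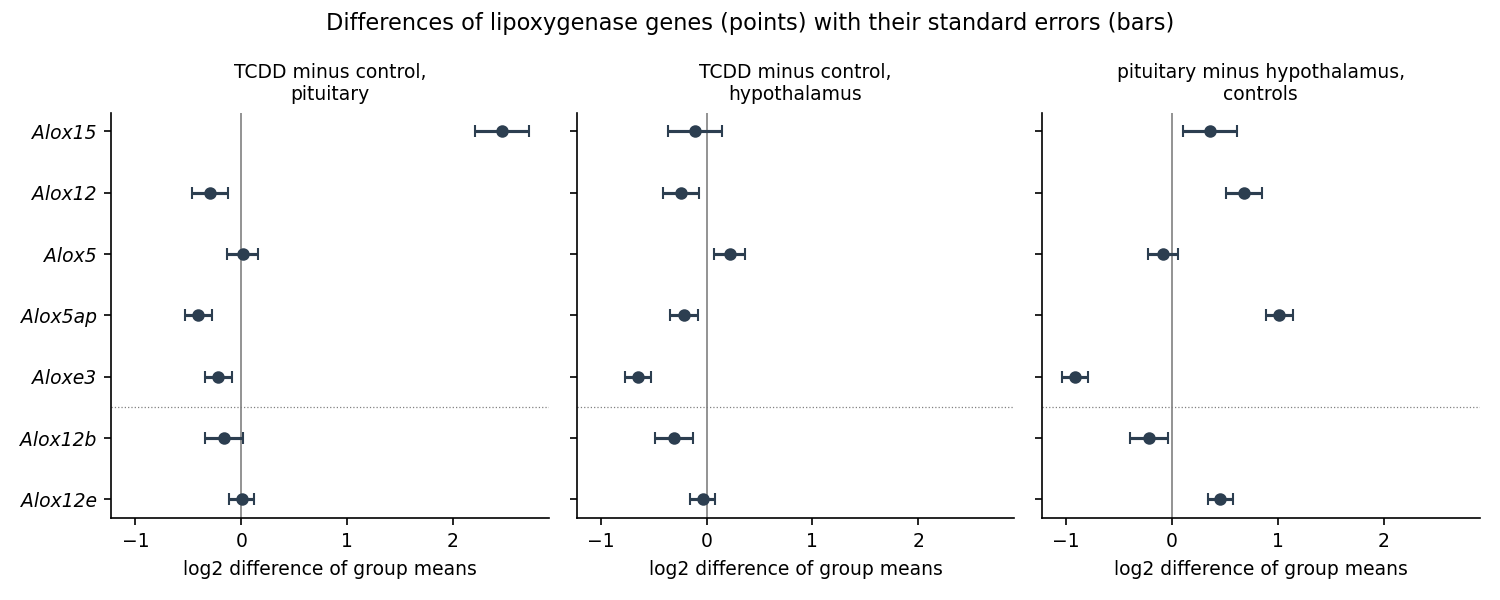
Log2 difference of group means (horizontal axis) with its standard error for the 5 members and, below the dotted line, Alox12b and Alox12e, for TCDD minus control in the pituitary and hypothalamus and for pituitary minus hypothalamus in controls. Alox15 in the pituitary, at 2.47, lies apart from every other TCDD difference, which run from -0.65 for Aloxe3 in the hypothalamus to 0.22 for Alox5 in the hypothalamus.

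Between the control tissues 3 of the 5 genes differed by the limma test adjusted over all 13018 probes. The choice of members did not compare these tissues, but the same control arrays entered the TCDD differences that led to it. The test is therefore not independent of the choice, least of all for Aloxe3, whose control hypothalami took part in both. Alox5ap was 7.11 ± 0.10 in control pituitaries and 6.10 ± 0.17 in control hypothalami (SD, n = 3 each), a difference of 1.02 ± 0.13 (SE), or 2.02-fold, with adjusted p = 1.36e-05. Alox12 was 6.55 ± 0.37 in control pituitaries and 5.87 ± 0.14 in control hypothalami, a difference of 0.68 ± 0.17 (SE) with adjusted p = 0.00314. Both genes were higher on all 3 pituitary arrays than on any hypothalamus array. Aloxe3 ran the other way, at 5.45 ± 0.09 in control pituitaries and 6.37 ± 0.16 in control hypothalami, a difference of -0.92 ± 0.12 (SE) with adjusted p = 2.72e-05. Alox5 did not pass, at -0.08 ± 0.14 (SE) with adjusted p = 0.624. The 2 of 5 that were higher and the 1 that was lower stand beside 33.7% of all tested probes higher and 35.9% lower in the control pituitary, so a tissue difference was the usual case on this array. The same 3-of-5 count was found under every alternative run, including each left-out array.

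Macrophage and microglia markers differed between the tissues alongside Alox5ap. The 11 markers with a probe summed to between 9267 and 10890 in control pituitaries and between 2671 and 3225 in control hypothalami, and 8 of the 10 tested were higher in control pituitaries, while Adgre1 was detected on no array. Tyrobp, an adaptor of myeloid receptors, was higher by 1.48 ± 0.17 (SE, adjusted p = 5.22e-06). Platelet markers differed alongside Alox12: their 3 probes summed to between 5018 and 5423 in control pituitaries and between 350 and 741 in control hypothalami, with Ppbp and Gp9 not detected in the hypothalamus. Pf4, a platelet chemokine that macrophages also express, accounted for most of it, at 3.37 ± 0.34 (SE, adjusted p = 1.81e-06). Ppbp did not pass the limma test (adjusted p = 0.0959). Gp9 passed it (adjusted p = 6.12e-05), but met the detection filter only with the control pituitaries, so nothing is read from its call. The part of these cells in the tissue differences was not tested.

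In TCDD pituitaries the sums of macrophage, granulocyte and erythroid markers overlapped those of controls. Macrophage markers summed to between 8977 and 10396 in TCDD pituitaries and between 9267 and 10890 in control pituitaries, and granulocyte markers to between 1169 and 1322 in TCDD pituitaries and between 1089 and 1319 in control pituitaries. Of the 11 granulocyte genes, the eosinophil genes Prg2 and Ccr3 and the neutrophil genes S100a8 and Lcn2 were detected on all 6 pituitary arrays. Prg3 was detected on 5 of them, Camp on 4 and Mpo on 2 control arrays, while the eosinophil gene Epx and the neutrophil genes S100a9, Elane and Ngp were detected on none. Prg2 and Ccr3 were detected on all 6 hypothalamus arrays too. Between control tissues 2 of the 7 tested granulocyte genes were higher in the pituitary, S100a8 and Lcn2. Ccr3 was lower there, at -0.88 ± 0.12 (SE, adjusted p = 2.72e-05), and Prg2 did not pass (adjusted p = 0.803). Erythroid markers summed to between 80033 and 81970 with TCDD and between 77848 and 83072 in controls. Hbb and Hba-a1, between 15.01 and 15.19 on all pituitary arrays, made up most of this sum. Its overlap therefore says little about the other erythroid genes, and 0 of the 7 tested passed the limma test. Of 68 tested marker genes over 10 lists, 0 rose and 9 fell with TCDD in the pituitary, against 0.384% and 0.284% of all tested probes. The lists were chosen with earlier results of these data known, so nothing is read from this count. Between 4 and 8 of these 9 genes passed when 1 array was left out. Mcpt10 failed the detection filter without any 1 of the control pituitary arrays. Of 8 tested mast cell genes 2 were among these. Tryptase Tpsab1 differed by -2.82 ± 0.35 (SE, adjusted p = 0.00248). Mcpt10 was not detected on any TCDD pituitary array and passed the detection filter only through the control pituitaries. Its level with TCDD is a bound, so no size is given and nothing is read from its call. Tpsb2 (adjusted p = 0.157), Cma1 (0.66), Cpa3 (0.579), Hdc (0.577) and Mcpt1 (0.884) did not pass, nor did Kit, at 0.13 (adjusted p = 0.815). The mast cell list's sum was between 765 and 963 in TCDD pituitaries and between 1181 and 2323 in control pituitaries. Ms4a2 and Fcer1a, the mast cell IgE receptor chains, were not detected in the pituitary. Of 10 tested macrophage genes only 1 passed, the scavenger receptor Cd163, which fell by 0.64 ± 0.11 (SE, adjusted p = 0.0225). This call was lost without pituitary TCDD replicate 5, at -0.55 (adjusted p = 0.0643). It was also lost without each of 3 other pituitary arrays (TCDD replicate 2, control replicates 2 and 3) and without background correction (adjusted p = 0.0532). Platelet markers were lower too, between 3258 and 4873 with TCDD and between 5018 and 5423 in controls, with none of 3 passing the test. Of 7 skeletal muscle genes 4 fell: Myl11, Ckm, Tnnc2 and Tnnt3. Myl11 and Ckm were detected on 3 control pituitary, 2 TCDD pituitary and 0 hypothalamus arrays. They passed the detection filter only with the control pituitaries, so nothing is read from their calls. With 1 array left out, Tnnt3 kept its call only without pituitary TCDD replicate 1. Ckm kept its call only without pituitary TCDD replicate 5 or hypothalamus TCDD replicate 3. Tnnc2 lost its call without pituitary TCDD replicate 1 or 2, pituitary control replicate 2 or 3, or hypothalamus TCDD replicate 1. Tnnt3 also lost its call without background correction, under median scaling and on the authors' processed values, and Ckm without the detection filter. With a trend of the spread on intensity in the model Tnnt3 was lost as well (adjusted p = 0.0722). The other 2 that fell were the gonadotropin genes Fshb and Lhb. Fshb was detected on 3 control pituitary, 2 TCDD pituitary and 0 hypothalamus arrays. It too passed the detection filter only with the control pituitaries, so nothing is read from its call. The part of mast cells, macrophages, platelets and muscle in the lipoxygenase differences was not tested.

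**Figure D3:**
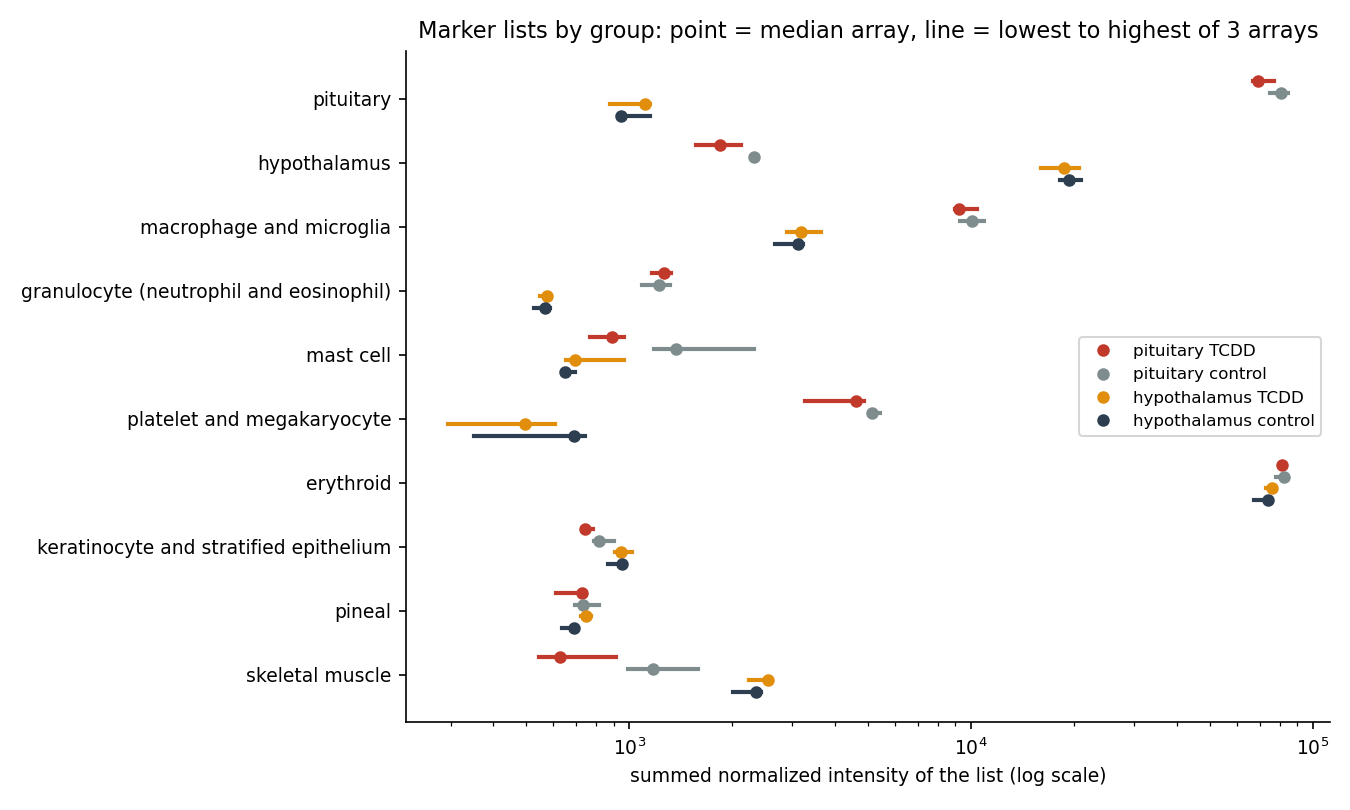
Summed normalized intensity (horizontal log axis) of 10 marker lists in each group; the point is the median array and the line runs between the lowest and highest of 3 arrays. Mast cell, platelet, skeletal muscle, keratinocyte and hypothalamus sums are lower in TCDD than in control pituitaries without overlap, and macrophage, granulocyte and erythroid sums overlap. A sum follows its brightest genes: 0 of 3 platelet, 0 of 5 keratinocyte and 0 of 10 hypothalamus genes passed the limma test there. Of all tested probes 20.0% did not overlap in the pituitary.

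Other lipoxygenase genes lie beside the members and showed no TCDD difference that passed. In the gene order of RefSeq's GRCr8, chromosome 10 carries Alox12, Alox12e and Alox15 next to each other, followed by Pelp1, and elsewhere Aloxe3 with Alox12b and Alox15b close by. Alox5 lies on chromosome 4 and Alox5ap on chromosome 12. Alox12e, the epidermal-type lipoxygenase between Alox12 and Alox15, measured 5.55 ± 0.08 in TCDD pituitaries and 5.55 ± 0.22 in control pituitaries (SD, n = 3 each), a difference of 0.01 ± 0.12 (SE, adjusted p = 0.993). It was not detected on any hypothalamus array. Pelp1, a nuclear receptor coregulator on the other side of Alox15, differed by 0.03 ± 0.11 (SE, adjusted p = 0.945) in the pituitary, and Rnasek, beside Alox12, by -0.19 ± 0.10 (SE, adjusted p = 0.477). Alox12b, which makes the substrate of Aloxe3 in skin, differed by -0.31 ± 0.18 (SE, adjusted p = 0.573) in the hypothalamus and by -0.16 ± 0.18 (SE, adjusted p = 0.803) in the pituitary. In controls Alox12e had means of 5.55 in control pituitaries and 5.09 in control hypothalami (adjusted p = 0.0042), with no fold because the hypothalamus level is a bound. This call was lost on the authors' processed values (adjusted p = 0.156). Alox12e was detected on 2 TCDD and 2 control pituitary arrays. It passed the detection filter only with the control pituitaries, so nothing is read from its call. Alox15b and Alox8 have no named probe here. Whether the probes of these related genes cross-hybridise was not tested, since probe sequences were not used here.

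The genes around the lipoxygenases in eicosanoid metabolism were taken as 10 lists of 114 genes, 91 with a probe and 61 tested. With TCDD, limma called 0 of the 61 in the pituitary, 0 in the hypothalamus and 0 for the difference between the effects, while 4, 6 and 4 had an unadjusted p below 0.05 (6.56%, 9.84% and 6.56%, against 11.5%, 10.9% and 11.8% of all tested probes). Their median difference was -0.06 in the pituitary and 0.01 in the hypothalamus.

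Of the 61 genes, Pla2g2a, a secreted phospholipase A2 that releases arachidonate, had the largest fitted difference in size in the pituitary, followed by Ptgds (-0.58) and Ephx2 (-0.47), for which no test passed. Pla2g2a measured 8.17, 8.13 and 7.57 in TCDD pituitaries, against 8.72, 8.36 and 9.06 in control pituitaries. All TCDD arrays lay below the controls, with a difference of -0.76 ± 0.28 (SE, adjusted p = 0.317), and of -0.57 without pituitary TCDD replicate 5. Pla2g15, a lysosomal phospholipase A2, differed by 0.40 ± 0.15 (SE, adjusted p = 0.32). Of the 10 tested phospholipases 5 had a positive difference.

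Mboat1, a lysophospholipid acyltransferase that returns fatty acids to membranes, had the lowest p of the 61. It measured 7.55, 7.73 and 7.66 in TCDD pituitaries, against 8.02, 8.16 and 7.96 in control pituitaries, without overlap. The difference was -0.40 ± 0.11 (SE, adjusted p = 0.157), and it passed only on the authors' processed values (adjusted p = 0.0231). In the prostanoid branch Ptges, the inducible prostaglandin E synthase, differed by -0.38 ± 0.13 (SE, adjusted p = 0.298) in the pituitary. In the hypothalamus the peroxidase Gpx1 differed by 0.39 ± 0.12 (SE, adjusted p = 0.307), Cyp4f5, of a family that inactivates leukotriene B4, by 0.53 ± 0.18 (SE, adjusted p = 0.324), and the arachidonate epoxygenase Cyp2c23 by -0.37 ± 0.11 (SE, adjusted p = 0.294).

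For interleukins 4 and 13, the signals known to induce Alox15 in human monocytes, 2 of 8 genes passed the detection filter. Il13ra2, the decoy receptor of interleukin 13, measured 9.33, 9.61 and 9.06 in TCDD pituitaries, against 9.51, 9.06 and 9.45 in control pituitaries, which overlapped. Its difference was -0.01 ± 0.15 (SE, adjusted p = 0.991), and its sign changed with the scaling and without pituitary TCDD replicate 5 (0.13). Jak3, a kinase of cytokine receptors, differed by -0.19 ± 0.16 (SE, adjusted p = 0.712). Among receptors for lipoxygenase products 2 of 11 were tested: the leukotriene B4 receptor Ltb4r differed by 0.29 ± 0.18 (SE, adjusted p = 0.604) and Ltb4r2 by -0.18 ± 0.10 (SE, adjusted p = 0.55) in the pituitary, the second by -0.10 without pituitary TCDD replicate 5.

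**Figure D4:**
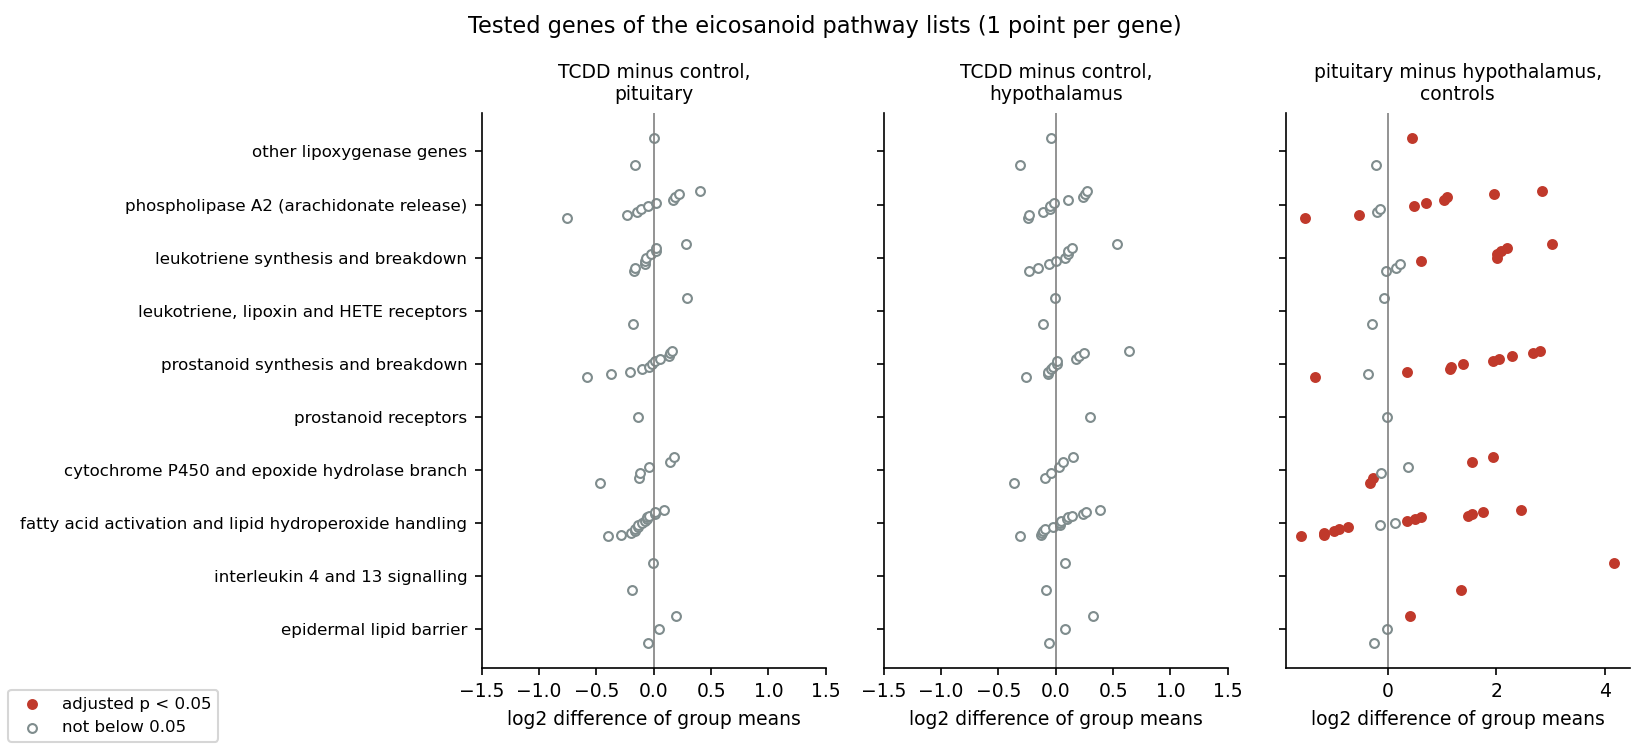
Log2 difference of group means (horizontal axis, wider in the right panel) of 61 tested genes by list, 1 point per gene; filled points have an adjusted p below 0.05. No point is filled in either TCDD panel, and 45 are filled between the control tissues.

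Between the control tissues 34 of the 61 pathway genes were higher and 11 lower in the pituitary, with a median difference of 0.46, against -0.05 over all probes, of which 33.7% were higher and 35.9% lower. For leukotriene synthesis and breakdown 6 of 9 tested genes were higher and 0 lower. Ptgr1, which inactivates leukotriene B4, differed by 3.02 ± 0.21 (SE, adjusted p = 5.39e-08), Mgst2, a leukotriene C4 synthase, by 2.10 ± 0.20 (SE, adjusted p = 9.31e-07), and Cyp4f6 by 2.20 ± 0.15 (SE, adjusted p = 4.71e-08). For prostanoids 9 of 11 were higher and 1 lower. Among phospholipases A2 6 of 10 were higher and 2 lower.

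Where control hypothalami never rose above background, folds are lower bounds, the pituitary mean against the mean over the 3 control hypothalami of the dimmest signal detected on each array, or of the probe's own level there if higher. Il13ra2 was at least 13.6-fold higher in control pituitaries (9.34 in control pituitaries, 5.17 in control hypothalami; adjusted p = 3.92e-10). Pla2g4a, the cytosolic phospholipase A2 that feeds lipoxygenases, was at least 2.57-fold higher (6.94 in control pituitaries, 4.97 in control hypothalami; adjusted p = 3.99e-08). Ptges was at least 2.93-fold higher (adjusted p = 5.34e-08) and the prostaglandin D synthase Hpgds at least 3.03-fold (adjusted p = 1.37e-07). Genes higher in the hypothalamus included Pla2g15, at -1.52 ± 0.15 (SE, adjusted p = 1.44e-06), and Ptges2, at -1.34 ± 0.12 (SE, adjusted p = 5.04e-07). Fatty acid activation was split, with 7 higher and 6 lower of 15: Mboat1 differed by 2.45 ± 0.11 (SE, adjusted p = 1.52e-09) and the arachidonate-preferring acyltransferase Lpcat3 by 1.48 ± 0.10 (SE, adjusted p = 4.37e-08).

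The named genes whose profile over the 12 arrays was most like that of Alox15 were Or5m8, Vwf, P3h1, Fetub and Gipr, by the root mean square difference of mean-centred log2 levels. Or5m8, an olfactory receptor gene, came closest at 0.34, and the others lay between 0.57 and 0.64. Or5m8 differed by 1.86 between TCDD and control pituitaries and by 0.12 between TCDD and control hypothalami. Vwf, which encodes von Willebrand factor of endothelium and platelets, differed by 1.08 in the pituitary and 0.23 in the hypothalamus. Fetub, a plasma protease inhibitor gene, differed by 1.33 in the pituitary, P3h1, a collagen prolyl hydroxylase gene, by 1.05 and Gipr, the receptor gene of the incretin GIP, by 1.04. These genes were picked for likeness to Alox15 on these arrays, so their differences are a description with no test.

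**Figure D5:**
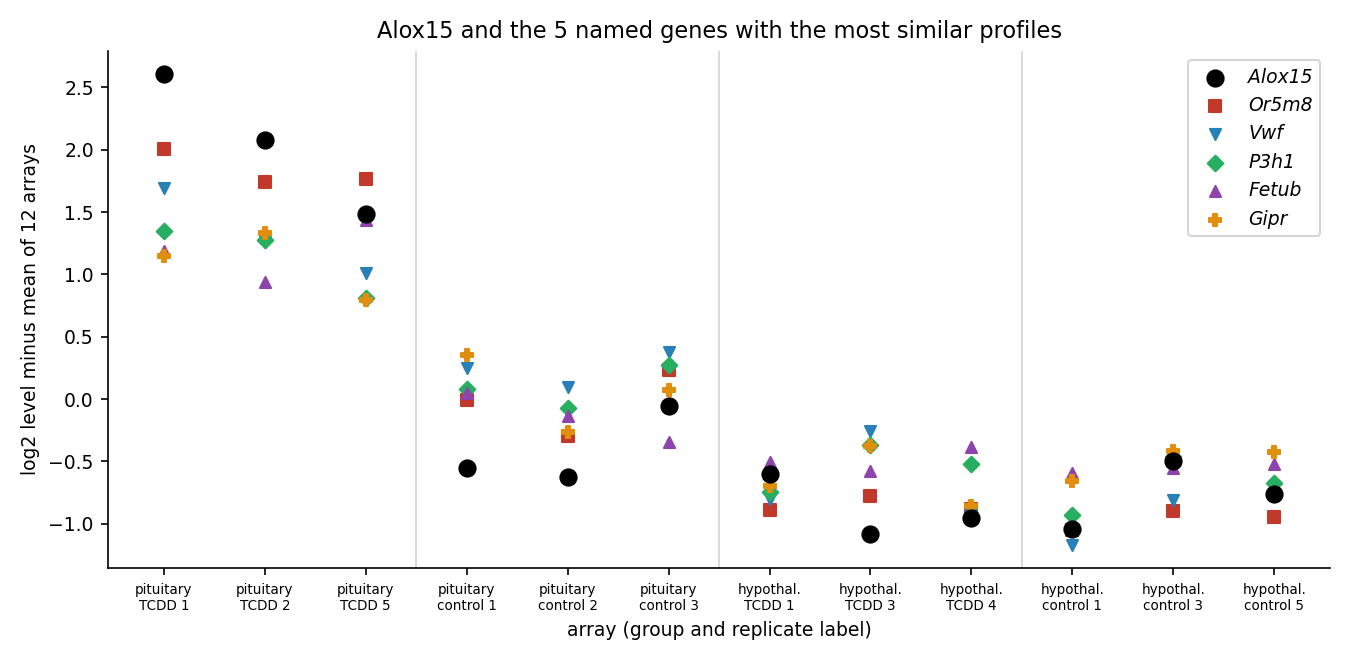
Log2 level minus the mean of the 12 arrays (vertical axis) of Alox15 and the 5 named genes most like it, for each array. All 6 are highest on the 3 TCDD pituitary arrays, where Alox15 reaches the highest value of the 6 on replicates 1 and 2 and Or5m8 on replicate 5.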

How the data were processed

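Per the file headers, the authors deposited non-normalized bead intensities and detection p-values of 22523 probes. A second deposited table holds processed values on a log2-like scale of unstated transform and served only as an alternative. In R 4.3.3, limma 3.58.1 (neqc, offset 16) corrected the background, quantile-normalized the 12 arrays together and took log2. The tests covered the 13018 probes detected (p-value below 0.05) on 3 or more arrays, all 5 members among them. A single model of 4 group means (8 residual and 4.19 prior degrees of freedom) gave two-sided moderated tests with Benjamini-Hochberg adjustment over all tested probes, at 0.05. Symbols came from the platform's annotation, which names 1 gene for 13793 probes, several for 0 and none for 8730, updated through RefSeq identifiers. Promoters were matched by symbol for 3 of 5 members. The text names all members, up to 4 passing genes of each pathway list and comparison or the 2 of smallest p, and the 5 genes most like each member that spanned more than 1 log2 unit; marker genes that passed with TCDD, and neighbours in the gene order, were named after their values were seen. Members and lists were chosen with earlier results of these data known. Same-numbered replicates did not pair. The model was run on simulated normalized values with independent scatter, which does not test the background correction, normalization or detection filter. The labels give no slide or scan, so batches could not be checked, and the number of arrays limits the precision.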

Additional observations from a re-analysis of the deposited data

How the results depend on the processing

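Without background correction the Alox15 pituitary difference was 2.01 and the Aloxe3 hypothalamus difference -0.36. On the authors' processed values they were 1.34 and -0.10, and limma called 1 pathway gene (Mboat1) in the pituitary. Leaving out each array in turn gave 2.19 to 2.76 for Alox15 in the pituitary, -0.75 to -0.53 for Aloxe3 in the hypothalamus, 0 pathway genes in both TCDD comparisons and 42 to 47 between control tissues. With the replicate number as a block (replicate block), which the data do not bear out as a pairing (same-numbered arrays correlated at 0.04 and 0.02 in the pituitary and -0.07 and 0.11 in the hypothalamus), Alox15 differed by 2.65 in the pituitary and Aloxe3 by -0.71 in the hypothalamus, no count of calls moved by over 1.5 times, and calls changed for Cyp2c23 and Cyp4a1 between control tissues and for the marker genes Cd163, Tnnc2 and Tnnt3 in the pituitary. With the tissues fitted separately 3 of the 9 marker genes that fell in the pituitary still passed (Lhb, Tpsab1 and Mcpt10). Fshb (adjusted p = 0.0522) and Myl11 (adjusted p = 0.107) were among those that did not. Signs that turned were all of differences that had not passed, except Cyp4a1. Under the block they were the TCDD effect in pituitary minus hypothalamus of Alox12b (-0.077) and Pla2g2a (0.30), the hypothalamus difference of Ltb4r2 (0.013) and the pituitary differences of Il13ra2 (0.048) and Alox12e (-0.041). Median scaling, which moved the median of all probes by -0.09 in the hypothalamus and put that of the difference between the effects at 0.11, turned Smpd1 (-0.091), Jak3 (-0.037), Lta4h (-0.080), Ltb4r2 (0.0019) and Alox12e (0.0088) in the hypothalamus and Il13ra2 (0.031) in the pituitary. Between control tissues Cyp4a1 was 0.041 on the authors' values and Tbxa2r 0.0021 without background correction. Leaving out arrays turned signs too, within these ranges: among the members, Alox15 in the hypothalamus -0.25 to 0.021 and Alox5 in the pituitary -0.032 to 0.083; for the difference between the effects, Il13ra2 -0.068 to 0.21, Alox12b -0.037 to 0.32 and Alox12e -0.074 to 0.14; in the hypothalamus, Smpd1 -0.0021 to 0.16, Jak3 -0.071 to 0.22, Ltb4r2 -0.052 to 0.036 and Alox12e -0.13 to 0.027; in the pituitary, Smpd1 -0.098 to 0.0029, Il13ra2 -0.15 to 0.13, Cyp4f4 -0.0044 to 0.56 and Alox12e -0.11 to 0.098; between control tissues, Tbxa2r -0.13 to 0.085. Smpd1 also lost its tissue call under median scaling (0.17) and Alox12e on the authors' values (0.051). Aloxe3 had no value in the pituitary fitted alone, where too few arrays detected it, and the cause of the other changes was not tested.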

Other observations

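For the other members that spanned more than 1 log2 unit over the 12 arrays, the closest named genes by root mean square difference of mean-centred log2 levels were as follows. Aloxe3 came closest to Serpinb6b, of a family of intracellular protease inhibitors, at 0.16. Serpinb6b differed by -0.68 between TCDD and control hypothalami and by -1.07 between control pituitaries and control hypothalami. Rnf185, Ndufaf4, Gpld1 and Zfp39 followed Serpinb6b, the farthest at 0.19. Alox5ap came closest to Fancd2, a gene of DNA crosslink repair, at 0.13. Fancd2 differed by -0.36 between TCDD and control pituitaries and by 1.20 between control pituitaries and control hypothalami. Sra1, Phox2a, Myh9 and Txndc17 followed it, the farthest at 0.14. Alox12 came closest to Mrpl17, a mitochondrial ribosomal protein gene, at 0.15, followed by Rilpl1, Rfesd, Tra2a and Efr3a, the farthest at 0.16. These genes were picked on the same arrays, so no test is given.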
